A study of Mus musculus with 4 samples.

Results

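Matrix metalloproteases (MMPs), ADAM and ADAMTS proteases and the TIMPs, their tissue inhibitors, were described as 1 gene group. The members were the rows of the deposited table whose symbol is Mmp, Adam or Adamts followed by a number, or Timp1 to Timp4. The rule found 79 genes of 55536 in the table: 23 MMP, 4 TIMP, 33 ADAM and 19 ADAMTS genes. The rule reads symbols and no measured value, though the group was chosen with earlier results of these data known.

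RNA came from the stromal vascular fraction (the cells left when adipocytes are removed) of mouse inguinal white fat and was sequenced in bulk. Each of the 4 libraries pooled 3 wild-type male mice of postnatal day 21, namely ObF1 with 1,3BD, LnF1 with 1,3BD, ObF1 with water and LnF1 with water. The series concerns parental obesity, and ObF1 and LnF1 are offspring groups as the labels spell them, while 1,3BD or water is each library's second label. Each combination had 1 library, so no value has a replicate, and the depth was 25432747, 24586827, 26000090 and 24804006 reads in the order given above. Values are the authors' CPM, the reads of a gene over a library total that was multiplied by a scaling factor. In the same order the factors were 1.05, 1.13, 0.885 and 0.950, so the values do not add up to the same total in each library. With these factors 1 read was worth between 0.0359 and 0.0434 CPM.

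MMPs are secreted or membrane-bound zinc proteases that cut collagens and other matrix proteins and are made with a propeptide that keeps them inactive. ADAMs are membrane-anchored relatives, of which some shed growth factors, cytokines and receptors from the cell surface and others have no protease activity. ADAMTS enzymes are secreted and trim procollagens and large proteoglycans. TIMPs block many of these enzymes, and in fat the balance of proteases and inhibitors is known to bear on the growth of adipocytes within their collagen network.

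Lymphocyte and neutrophil genes were nearly absent, macrophage genes reached a few CPM and fibroblast genes varied. The summed level of 7 fibroblast and progenitor markers was 4082 and 4889 CPM in ObF1 and LnF1 with 1,3BD, against 19248 and 17409 CPM in ObF1 and LnF1 with water, of which Col1a1, a fibrillar collagen gene, gave 3371 and 4307 CPM, against 18761 and 16522 CPM. Of these 7 markers, 6 were tested and 1 fell. Pdgfra, a receptor on adipose progenitors, stood between 236 and 412 CPM, while Dpp4 and Pi16 stayed between 0.143 and 2.08 CPM. Ptprc, carried by all white blood cells, did not exceed 0.150 CPM, and Cd3e, Epcam, Adipoq and Hbb-bs had 0 reads in the 4 libraries, which allows up to 0.130 CPM. The summed level of 4 mural cell markers (Pdgfrb, Rgs5, Cspg4, Kcnj8) was 154 and 160.4 CPM in ObF1 and LnF1 with 1,3BD, against 728 and 549 CPM in ObF1 and LnF1 with water, nearly all of it Pdgfrb, and 3 of the 4 fell with 1,3BD in the test described below. That of 4 endothelial markers was 2.44 and 0.717 CPM with 1,3BD, against 12.9 and 4.67 CPM with water, with Cldn5 at 0 to 1 read. Plin1, a lipid droplet gene of fat-laden cells, was at 1.84 and 5.09 CPM with 1,3BD, against 0.0434 and 0.0849 CPM with water. The summed level of 5 macrophage genes was 3.52 and 3.05 CPM in ObF1 and LnF1 with 1,3BD, against 7.78 and 12.9 CPM with water. Of these, 2 were tested and 1 fell. Csf1r reached 6.13 CPM in ObF1 water, and Mrc1 had 6.28 CPM in LnF1 water but 0.608 CPM in ObF1 water. Cd68 went the other way, at 2.14 and 1.47 CPM in ObF1 and LnF1 with 1,3BD, against 0.956 and 1.32 CPM with water. The mitochondrial share of reads was 5.80% and 2.78% in ObF1 and LnF1 with 1,3BD, against 1.30% and 1.13% in ObF1 and LnF1 with water. The Col1a1 level, the mural, endothelial and macrophage sums, Plin1 and the mitochondrial share differed by 1,3BD label in both parental groups. Their part in the results below was not tested. In bulk RNA, fewer cells of a type and less RNA per cell cannot be told apart.

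Of the 79 genes, 37 reached at least 1 CPM in at least 2 libraries and were tested. A further 26 had reads below that level, and 16 had 0 reads in all 4 libraries. The tested genes were 3 of 4 TIMP, 10 of 23 MMP, 12 of 33 ADAM and 12 of 19 ADAMTS genes. Among 21 ADAM genes known mainly from testis and the reproductive tract, Adam5 was the 1 that passed this level, and 10 had no read.

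**Figure D1:**
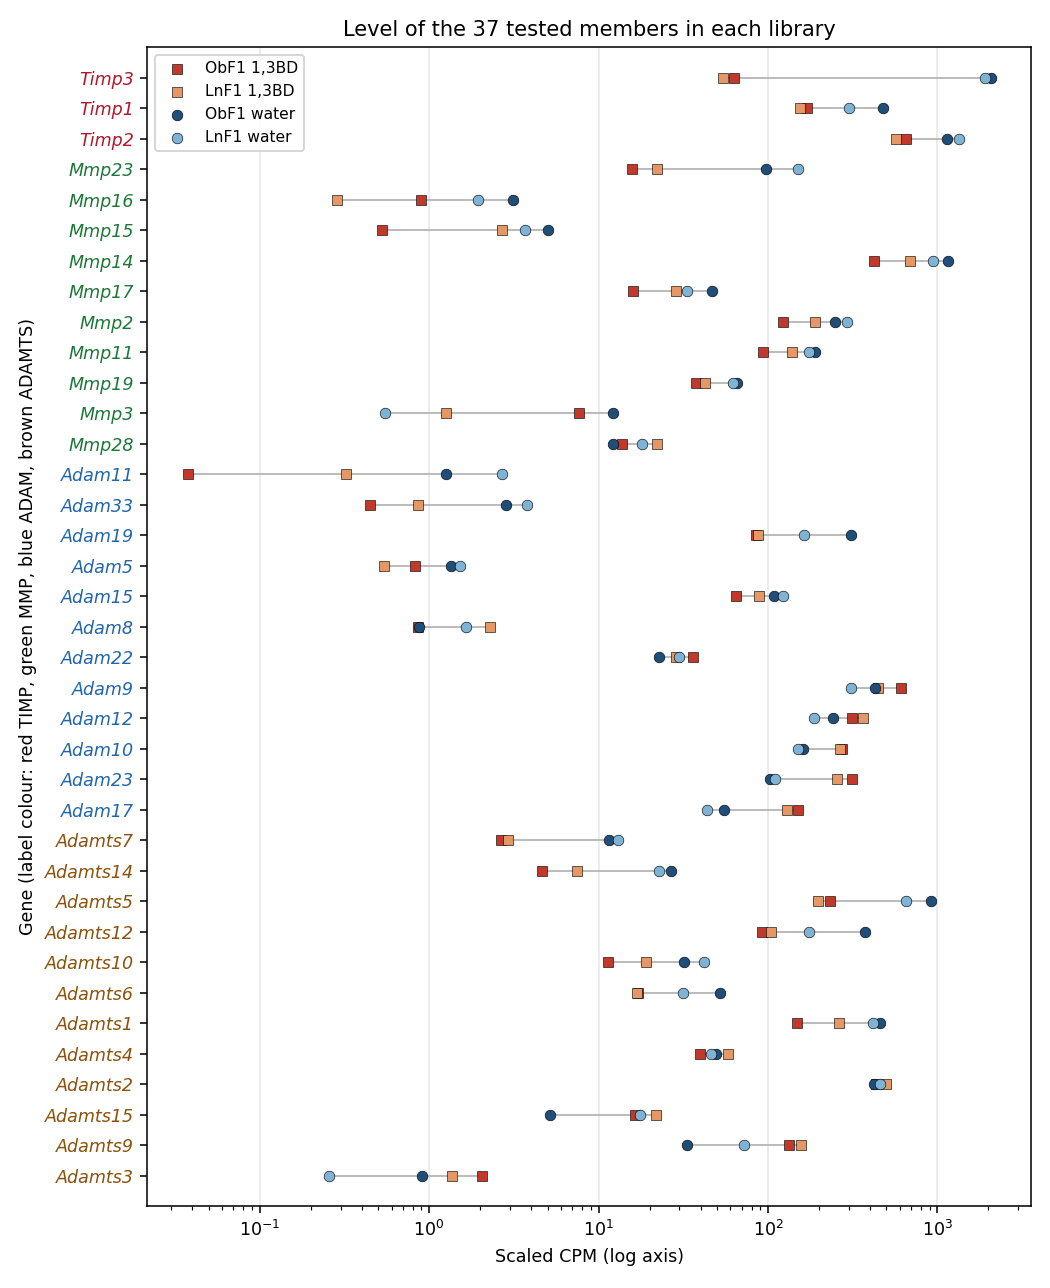
Level of each tested gene in the 4 libraries, in scaled CPM on a log axis, 1 point a library (squares 1,3BD, circles water, dark ObF1, light LnF1) and a grey line over their range. Timp3 spans 54.1 to 2068 CPM with squares far left of circles, while for Mmp3 both ObF1 points lie right of both LnF1 points.

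Levels were compared between genes only per kilobase of annotated exon. Timp1, Timp2 and Mmp14 had the highest mean level over the 4 libraries, at 311, 236 and 134 CPM per kb, followed by Timp3 (126), Adam9 (109) and Mmp2 (63.4). Timp3 had rank 20 and 21 in level in ObF1 and LnF1 with 1,3BD, against rank 3 in both with water. Adam10 had rank 5 and 6 with 1,3BD, against rank 14 and 12 in ObF1 and LnF1 with water. Summed over its family, the ADAM level was 298 and 260.3 CPM per kb in ObF1 and LnF1 with 1,3BD, against 238 and 183 CPM per kb with water. The summed MMP level was 169.6 and 254 CPM per kb in ObF1 and LnF1 with 1,3BD, against 415 and 400.4 CPM per kb with water. The summed ADAMTS level was 128 and 162 CPM per kb in ObF1 and LnF1 with 1,3BD, against 281 and 235 CPM per kb with water. The summed levels per kb thus stood higher for ADAM genes and lower for MMP and ADAMTS genes with 1,3BD in both parental groups. No test of the sums was made.

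The first comparison was 1,3BD against water. All 3 tested TIMP genes and 8 of 10 tested MMP genes were lower with 1,3BD, while the shedding proteases Adam17 and Adam10 were higher. Over all tested members, 7 were higher, 22 lower and 8 did not pass (limma on log2 CPM with a small pseudocount, parental group as a term, Benjamini-Hochberg adjusted p under 0.05 over 12838 genes). In the same test 19.2% of all genes were called higher, 24.8% lower and 44% in either direction. The median log2 difference was -0.87 over the 37 members and -0.060 over all tested genes. By family, 0 TIMP, 0 MMP, 4 ADAM and 3 ADAMTS genes rose, and 3 TIMP, 8 MMP, 4 ADAM and 7 ADAMTS genes fell. Among these tested genes no MMP or TIMP gene was higher at an unadjusted p under 0.05 in limma, or by edgeR or DESeq2, though 1 MMP gene was at that level without ObF1 water, and Mmp8, below the tested level, was called higher without a filter. With plain library totals 4 of the 10 MMP genes were called lower, and with 1 library left out 1 (without LnF1 water), 7 (LnF1 1,3BD), 1 (ObF1 water) or 2 (ObF1 1,3BD). No test of the group as such was made, so the counts describe these genes beside the background.

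With 1 residual degree of freedom, the error in this test comes from how unlike the 1,3BD difference was in ObF1 and in LnF1, moderated over genes of like level. Of the 29 calls, 23 were kept by edgeR, DESeq2, plain library totals, a larger pseudocount and moderation without robust weights, and Adam15, Adamts3, Mmp11, Mmp15, Mmp17 and Mmp19 each lost theirs in at least 1 of these. Fits that left out 1 library must also drop the parental term. They called 4 higher and 9 lower without LnF1 water, 3 and 19 without LnF1 1,3BD, 3 and 8 without ObF1 water, and 2 and 12 without ObF1 1,3BD. Timp3, Mmp23, Adam17, Adam23, Adamts5, Adamts7 and Adamts14 were called in all 13 settings. Plain library totals shift the median gene up by 0.25 on the log2 scale in this comparison, with 3687 of all genes called higher and 2270 lower, in place of 2466 and 3189, and 9 members higher and 17 lower.

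The inhibitors come first. Timp3 encodes the TIMP that binds to the matrix and also inhibits ADAM17 and aggrecan-cleaving ADAMTS enzymes (chromosome 10, 86300372 to 86349506, plus strand, mm10). It had 63.3 and 54.1 CPM in ObF1 and LnF1 with 1,3BD, against 2068 and 1919 CPM in ObF1 and LnF1 with water. The log2 difference was -5.09 (SE 0.20, limma adjusted p = 4.08e-08), a 34.0-fold lower level with 1,3BD, and it was the largest fall of the 37 genes. Both 1,3BD libraries lay below both water libraries, and the parental groups were close within each label. Syn3, a neuronal gene on the opposite strand whose exons cover 21.3% of the Timp3 exons, stood at 0.0750 to 0.637 CPM.

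Timp1, the inducible secreted inhibitor on the X chromosome, had 170.0 and 155 CPM in ObF1 and LnF1 with 1,3BD, against 478 and 301 CPM with water (log2 -1.22, SE 0.21, limma adjusted p = 0.000924). Without ObF1 water its log2 difference was -0.89 and did not pass (limma adjusted p = 0.0747, range over settings from 4.31e-08 to 0.0747). Timp2 encodes an inhibitor that also serves, bound to MMP14, as the receptor through which pro-MMP2 is activated. Its level was 649 and 568 CPM with 1,3BD in ObF1 and LnF1, against 1132 and 1333 CPM with water (log2 -1.02, SE 0.22, limma adjusted p = 0.00400). This call ended without LnF1 water (-0.90) and without ObF1 water (-1.13). Timp4 had 0 to 3 reads a library and was not tested.

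The makeup of the TIMP transcripts differed along with their level. Timp3 made up 2.12% and 2.03% of the summed TIMP level per kb in ObF1 and LnF1 with 1,3BD, against 23.5% and 25.7% in ObF1 and LnF1 with water. The summed TIMP level was 366 and 327 CPM per kb with 1,3BD, against 1083 and 916 CPM per kb with water, a ratio of 0.338 in ObF1 and 0.357 in LnF1. Timp1 was the most abundant of the 3 per length in both 1,3BD libraries and in ObF1 water, and Timp2 in LnF1 water by a small margin (342 against 339 CPM per kb for Timp1).

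**Figure D2:**
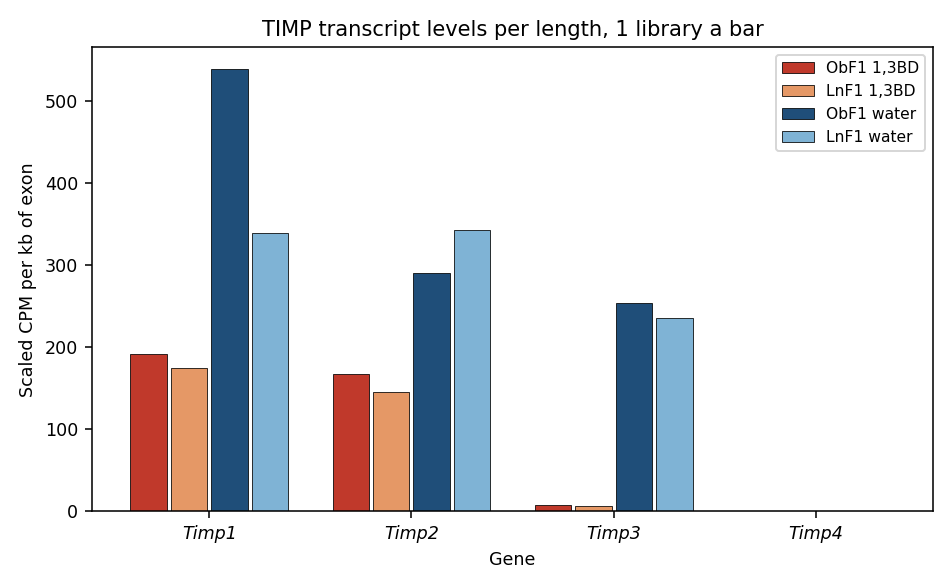
Level of the 4 TIMP genes in scaled CPM per kb of exon, 1 bar a library (red and orange 1,3BD, dark and light blue water). Timp3 stands at 7.77 and 6.64 CPM per kb with 1,3BD, against 254 and 236 CPM per kb with water, and Timp4 is close to 0 throughout.

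Among the MMPs, Mmp14 and Mmp2 work as a pair, the membrane-anchored collagenase MMP14 activating the gelatinase MMP2. Mmp14 had 422 and 686 CPM in ObF1 and LnF1 with 1,3BD, against 1152 and 945 CPM with water (log2 -0.95, SE 0.26, limma adjusted p = 0.0129). Mmp2 stood at 123 and 191 CPM with 1,3BD in ObF1 and LnF1, against 249.6 and 291 CPM with water (log2 -0.81, SE 0.20, limma adjusted p = 0.00749). For both genes the 1,3BD libraries were the 2 lowest, with ObF1 the lower of them. Both calls ended when LnF1 water (-1.10 for Mmp14 and -0.70 for Mmp2), ObF1 water (-0.81 and -0.92) or ObF1 1,3BD (-0.61 and -0.50) was left out.

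Mmp23, a transmembrane MMP that is released from the membrane when its propeptide is cut, changed more. It had 15.7 and 22.2 CPM in ObF1 and LnF1 with 1,3BD, against 97.2 and 149.8 CPM with water (log2 -2.69, SE 0.21, limma adjusted p = 4.12e-06), and no library of one label reached into the range of the other. Mmp16, a membrane-type MMP, was low throughout at 0.900 and 0.287 CPM with 1,3BD, against 3.13 and 1.95 CPM with water (log2 -2.09, limma adjusted p = 0.00419). Its call was lost without LnF1 water (-2.42), LnF1 1,3BD (-1.38) or ObF1 water (-1.76).

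Further falls were seen for Mmp11 (log2 -0.67), a fibroblast-derived stromelysin that is activated inside the cell, for Mmp19 (-0.67), whose enzyme acts on basement membrane proteins, and for the membrane-type genes Mmp17 (-0.87) and Mmp15 (-1.76). With plain library totals none of these 4 passed, and all 4 calls ended without LnF1 water, ObF1 water or ObF1 1,3BD. Mmp11 had 93.6 and 138 CPM in ObF1 and LnF1 with 1,3BD, against 189 and 174 CPM with water. Mmp19 had 37.6 and 42.6 CPM with 1,3BD, against 65.3 and 62.3 CPM with water. Both genes were lowest in the 1,3BD libraries. Exons of genes on the opposite strand cover 28.3% of those of Mmp19, and Tmem198b holds most of this overlap. Tmem198b had 7.84 and 10.8 CPM in ObF1 and LnF1 with 1,3BD, against 22.8 and 21.01 CPM with water. Like Mmp19, it was thus lower with 1,3BD in both parental groups. Reads of the 2 strands cannot be told apart unless strand was used in counting, which the sources do not state. Whether reads of Tmem198b add to the Mmp19 difference was not tested. Mmp17 had 16.0 and 28.7 CPM in ObF1 and LnF1 with 1,3BD, against 46.6 and 33.2 CPM with water, and Mmp15 had 0.525 and 2.69 CPM, against 4.996 and 3.69 CPM. Mmp28, an MMP of skin and other epithelia, had 13.7 and 22.2 CPM with 1,3BD, against 12.2 and 18.1 CPM with water. Mmp28 and Mmp3 did not pass (log2 0.23 and 0.20).

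The ADAM family was split. Adam17, the main sheddase of tumour necrosis factor and of several EGF receptor ligands, had 149.8 and 130.0 CPM in ObF1 and LnF1 with 1,3BD, against 55.1 and 43.9 CPM with water (log2 1.504, SE 0.20, limma adjusted p = 0.000156). Adam10, which cuts Notch receptors and many other surface proteins, stood at 275 and 267 CPM with 1,3BD, against 160.1 and 151 CPM with water (log2 0.80, SE 0.19, limma adjusted p = 0.00639). For both genes the 2 1,3BD libraries were the 2 highest and close to each other. The Adam10 call ended without LnF1 water (0.76), ObF1 water (0.85) or ObF1 1,3BD (0.78), with its size nearly the same.

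Adam12, known as meltrin alpha and linked to adipocyte formation in mice, had 314 and 366 CPM in ObF1 and LnF1 with 1,3BD, against 243 and 186 CPM with water. It passed in the additive fit (log2 0.67, SE 0.21, limma adjusted p = 0.0253) and in none of the 4 fits that left out a library, where the log2 difference lay between 0.48 and 0.86. Adam9, the most abundant ADAM per length, had 607 and 447 CPM with 1,3BD, against 431 and 309 CPM with water. It did not pass (log2 0.51, limma adjusted p = 0.0574) but was called by edgeR and DESeq2 and with plain library totals. Adam23, whose protein lacks protease activity and binds partners at the cell surface, had 314 and 256 CPM in ObF1 and LnF1 with 1,3BD, against 102 and 109.9 CPM with water (log2 1.42, SE 0.20, limma adjusted p = 0.000269).

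Other ADAM genes were lower with 1,3BD. Adam19, or meltrin beta, had 85.3 and 87.2 CPM in ObF1 and LnF1 with 1,3BD, against 309.7 and 163 CPM with water (log2 -1.38, SE 0.24, limma adjusted p = 0.00125). The water libraries differed from each other far more than the 1,3BD libraries did, and the call ended without ObF1 water (-0.92), LnF1 1,3BD or ObF1 1,3BD. Adam33, a gene studied for its link to human asthma, fell to 0.450 and 0.861 CPM with 1,3BD in ObF1 and LnF1, against 2.82 and 3.78 CPM with water. Adam11, another member without protease activity, stood at 0.0375 and 0.323 CPM with 1,3BD, against 1.26 and 2.67 CPM with water (log2 -3.15, SE 0.54, limma adjusted p = 0.000940). The lowest of these values is a single read, and the Adam33 and Adam11 calls ended without LnF1 water (-2.04 and -2.63). Adam15, which binds integrins, had 64.4 and 88.2 CPM with 1,3BD, against 108 and 123 CPM with water, and fell by 0.61 on the log2 scale, a call that ended with library totals, with DESeq2 and without LnF1 water, ObF1 water or ObF1 1,3BD.

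The other tested ADAM genes did not pass. Adam22, a receptor of LGI proteins without protease activity, had 35.8 and 28.7 CPM in ObF1 and LnF1 with 1,3BD, against 22.6 and 29.8 CPM with water. Adam8, best known from leukocytes, had 0.862 and 2.30 CPM with 1,3BD, against 0.869 and 1.66 CPM with water. Their 1,3BD and water ranges overlapped, whereas Adam5, a testis gene, was lower in both 1,3BD libraries at 0.825 and 0.538 CPM, against 1.35 and 1.53 CPM with water (log2 -1.02, limma adjusted p = 0.106).

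Of 12 tested ADAMTS genes 7 fell and 3 rose. Those known to cut the large proteoglycans versican and aggrecan differed among themselves. Adamts5 had 233 and 198 CPM in ObF1 and LnF1 with 1,3BD, against 912 and 654 CPM with water (log2 -1.85, SE 0.20, limma adjusted p = 4.95e-05). Adamts1, its neighbour on chromosome 16, had 148 and 262 CPM with 1,3BD, against 456 and 414 CPM with water (log2 -1.14, SE 0.24, limma adjusted p = 0.00396). Adamts9 was higher instead, at 134 and 157 CPM in ObF1 and LnF1 with 1,3BD, against 33.0 and 72.2 CPM with water (log2 1.57, SE 0.24, limma adjusted p = 0.000503). The 1,3BD and water ranges of these 3 genes did not overlap. The Adamts1 call ended without LnF1 water, ObF1 water or ObF1 1,3BD (log2 -0.73 without the last), and the Adamts9 call without ObF1 water (1.00), LnF1 1,3BD or ObF1 1,3BD. Exons of other genes on the opposite strand cover 12.0% of those of Adamts9.

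Adamts15 had 16.3 and 21.9 CPM in ObF1 and LnF1 with 1,3BD, against 5.17 and 17.4 CPM with water (log2 0.99, SE 0.32, limma adjusted p = 0.0303). The LnF1 water value lay inside the range of the 1,3BD libraries, and without ObF1 water the log2 difference was 0.12 and did not pass. The call also ended without LnF1 1,3BD, without ObF1 1,3BD, and without the parental term. Adamts4, also a proteoglycan-cutting enzyme, had 39.7 and 58.1 CPM with 1,3BD, against 49.4 and 46.0 CPM with water, with overlapping ranges (log2 0.011).

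The procollagen processing enzymes also took different courses. Adamts2, which removes the amino-terminal propeptide of fibrillar collagens, was nearly level at 433 and 497 CPM in ObF1 and LnF1 with 1,3BD, against 424 and 456 CPM with water (log2 0.078, limma adjusted p = 0.776). Adamts14, with the same type of activity, fell to 4.65 and 7.49 CPM with 1,3BD, against 26.7 and 22.7 CPM with water (log2 -2.04, SE 0.29, limma adjusted p = 0.000262). Adamts3, which also processes the lymphatic growth factor VEGF-C, had 2.06 and 1.36 CPM with 1,3BD, against 0.912 and 0.255 CPM with water (log2 1.61, limma adjusted p = 0.0219), a call that DESeq2 did not make and that ended without LnF1 water (0.83), LnF1 1,3BD or ObF1 1,3BD. The 1,3BD and water ranges of Adamts14 and Adamts3 did not overlap.

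The related enzymes Adamts7 and Adamts12, which can cut cartilage oligomeric matrix protein, both fell. Adamts7 had 2.66 and 2.90 CPM in ObF1 and LnF1 with 1,3BD, against 11.6 and 12.9 CPM with water (log2 -2.11, SE 0.30, limma adjusted p = 0.000296). Adamts12 stood at 92.4 and 104 CPM with 1,3BD, against 376 and 174 CPM with water (log2 -1.38, SE 0.29, limma adjusted p = 0.00482), and its call ended without ObF1 water (-0.83), LnF1 1,3BD or ObF1 1,3BD. Adamts6 and Adamts10, whose proteins act on fibrillin microfibrils, fell by 1.25 and 1.31 on the log2 scale. Adamts6 had 17.1 and 16.8 CPM in ObF1 and LnF1 with 1,3BD, against 51.9 and 31.3 CPM with water. Adamts10 had 11.4 and 19.0 CPM with 1,3BD, against 31.8 and 41.9 CPM with water, again with no overlap between the labels. The Adamts6 call ended without ObF1 water (-0.88) and the Adamts10 call without LnF1 water (-1.11).

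**Figure D3:**
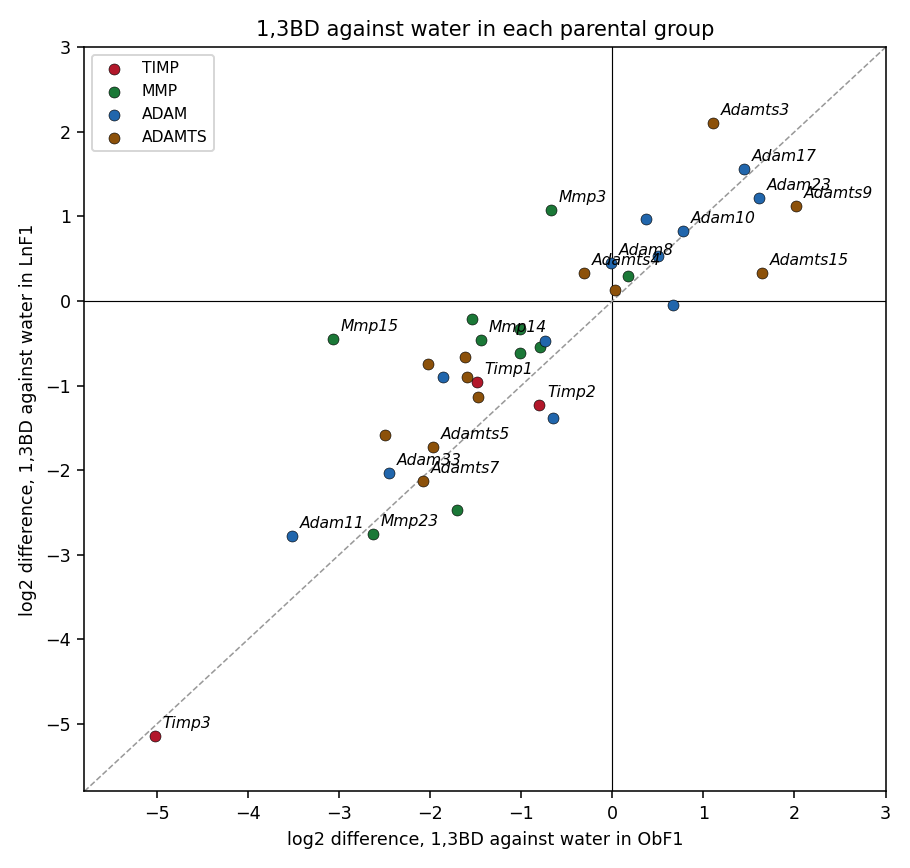
Log2 difference of 1,3BD against water in ObF1 (x axis) and in LnF1 (y axis) for the 37 tested genes, coloured by family, with a dashed line of equal differences. Timp3 lies at -5.03 and -5.15, far from the other genes, while Mmp3 lies at -0.68 and 1.08, in the quadrant of opposite signs.

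The 1,3BD differences in ObF1 and in LnF1 share no library. Their sign was the same for 33 of 37 genes, and Mmp3, Adamts4, Adam22 and Adam8 were the exceptions. The share of like signs over all genes was not counted, so this count does not set the members apart from the background. In ObF1, 5 members were at least 2-fold higher and 19 at least 2-fold lower, where 12.6% and 19.7% of all genes with a mean of at least 1 CPM were. In LnF1 the counts were 5 and 11, beside 10.2% and 16.3% of all genes. Adam17, Adam23, Adamts3 and Adamts9 were at least 2-fold higher in both, and 9 genes, Timp3, Mmp16, Mmp23, Adam11, Adam33, Adamts5, Adamts7, Adamts10 and Adamts14, at least 2-fold lower in both. Single-library differences have no test.

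The second comparison was ObF1 against LnF1. Mmp3, a stromelysin that cuts proteoglycans, fibronectin and other MMPs' propeptides, was higher in ObF1 with either label and was the 1 member called. Of 37 tested members 1 was higher and 0 lower, where 0.195% of all genes were called higher, 0.101% lower and 0.296% in either direction. At an unadjusted p under 0.05 in limma, 3 members were higher and 7 lower. In either direction 1392 of all 12838 tested genes were at that level. By adjusted p, edgeR and DESeq2 likewise called 1 member higher and 0 lower. The median log2 difference was -0.14 over the members and 0.011 over all genes.

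Mmp3 (chromosome 9, 7445822 to 7455975, plus strand) had 7.61 and 12.2 CPM in ObF1 with 1,3BD and with water, against 1.26 and 0.552 CPM in LnF1 with 1,3BD and with water. These levels rest on 203, 281, 35 and 13 reads in the same order. Exact 95% Poisson intervals, which cover counting error only, were 6.60 to 8.73 and 10.8 to 13.7 CPM in the ObF1 libraries, against 0.874 to 1.75 and 0.294 to 0.944 CPM in the LnF1 libraries. The log2 difference was 3.40 (SE 0.45, limma adjusted p = 0.0119), and the CPM ratio was 6.07 with 1,3BD and 22.1 with water. It passed with edgeR (3.41, adjusted p = 0.0217) and DESeq2 (3.47, adjusted p = 1.34e-07). The call was lost among genes with a mean of at least 5 CPM (limma adjusted p = 0.0657) and without the 1,3BD term. It was also lost without any 1 library, in fits that must also drop the 1,3BD term. Without that term, differences between the labels enter the error of every gene, so these fits cannot decide whether the call holds. With a library left out they also shift the estimate. The log2 difference was 2.86 without LnF1 water, 3.94 without LnF1 1,3BD, 3.07 without ObF1 water and 3.74 without ObF1 1,3BD.

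Mmp3 lies in a row of 10 MMP genes within 427 kb of chromosome 9, from Mmp13 to Mmp7, a set chosen by position after the values were seen. The other 9 genes were below the tested level. Together they had 45 and 55 reads in ObF1 with 1,3BD and with water, against 8 and 12 reads in LnF1 with 1,3BD and with water. Mmp13, a collagenase, had 6 and 19 reads in ObF1, against 2 and 2 reads in LnF1. Mmp10, the second stromelysin, had 0 and 21 reads in ObF1, against 0 and 5 reads in LnF1, so it was seen in water libraries only. Mmp8, known as the collagenase of neutrophils, had 27 reads with 1,3BD and 1 with water in ObF1, against 2 and 0 reads in LnF1. The neutrophil genes S100a8 and S100a9 had at most 0.112 CPM and 0 reads. The 27 reads of Mmp8 in ObF1 1,3BD gave 1.01 CPM (exact Poisson interval 0.667 to 1.47 CPM). Mmp1a, Mmp7 and Mmp20 had no read.

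**Figure D4:**
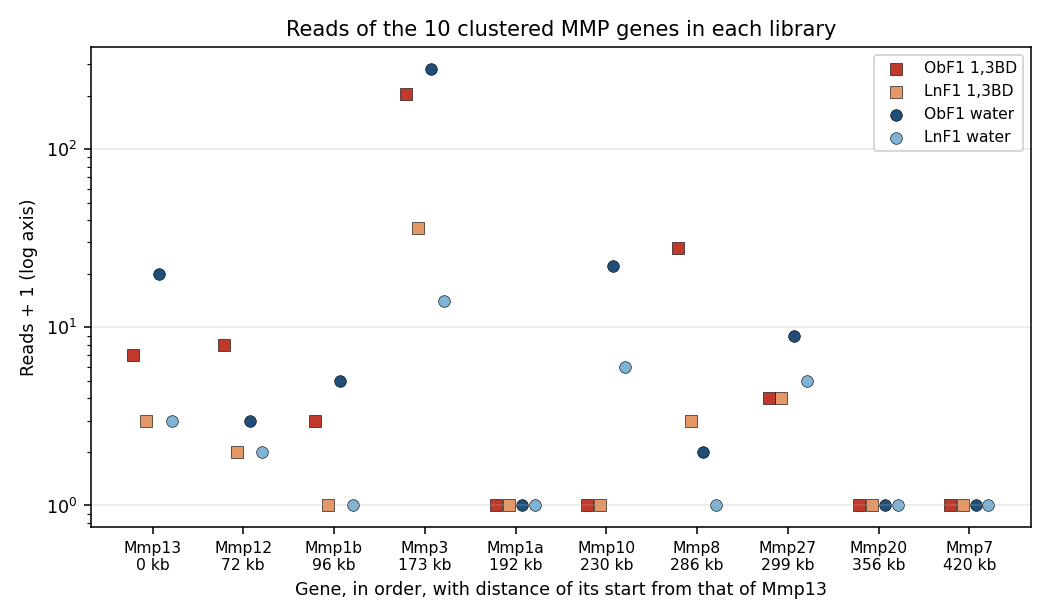
Reads plus 1, on a log axis, of the 10 clustered MMP genes in each library (squares 1,3BD, circles water, dark ObF1, light LnF1), in gene order with the distance from the start of Mmp13. Mmp3 stands out at 203 and 281 reads in ObF1, against 35 and 13 in LnF1, and the others stay at 27 reads or fewer.

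The sequence before these genes is shown because the clustered MMPs share short motifs that the other members mostly lack. Upstream sequences were those of RefSeq (GRCm38.p6), 250 bases before each listed start, found for 49 of the 79 members. They were searched on both strands for the AP-1 motif TGANTCA, the TATA motif TATAAA and the GC box GGGCGG, which do not overlap in the sequences below. Capitals mark matches in 120 bases upstream of the stromelysins Mmp3 and Mmp10, the collagenases Mmp13 and Mmp8, and Timp3, the gene with the largest fall. The Timp3 stretch ends where the mm10 transcript begins, short of the RefSeq start, so the GC box found at -15 from the RefSeq start is not in it.
Mmp3, chr9:7445702-7445821, plus strand: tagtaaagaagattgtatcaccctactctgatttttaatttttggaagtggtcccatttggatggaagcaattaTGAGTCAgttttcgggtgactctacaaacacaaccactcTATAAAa
Mmp10, chr9:7502222-7502341, plus strand: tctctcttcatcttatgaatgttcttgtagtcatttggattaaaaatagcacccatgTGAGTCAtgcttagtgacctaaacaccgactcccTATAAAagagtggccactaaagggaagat
Mmp13, chr9:7272394-7272513, plus strand: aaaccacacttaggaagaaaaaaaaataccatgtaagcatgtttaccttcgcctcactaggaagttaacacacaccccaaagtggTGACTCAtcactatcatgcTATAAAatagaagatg
Mmp8, chr9:7558309-7558428, plus strand: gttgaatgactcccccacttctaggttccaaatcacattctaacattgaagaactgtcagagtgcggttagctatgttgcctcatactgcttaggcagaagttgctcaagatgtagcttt
Timp3, chr10:86300252-86300371, plus strand: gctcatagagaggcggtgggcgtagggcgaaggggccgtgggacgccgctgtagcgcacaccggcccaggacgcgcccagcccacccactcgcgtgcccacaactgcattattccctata

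The AP-1 motif began at position -46 from the listed start of Mmp3, at -63 for Mmp10 and at -35 for Mmp13, each with a TATA motif nearer the start. Over the whole 250 bases, 8 of the 10 clustered genes held TGANTCA in at least 1 listed upstream sequence, against 4 of 39 other members and 6.75% of 32817 upstream sequences in the table. TATAAA was found for 7 of the 10 clustered genes, against 5 of 39 other members and 12.4% of all. The GC box was found for 0 of the 10 clustered genes, against 20 of 39 other members and 32.7% of all. Median GC content was 40.2% over the upstream sequences of the clustered genes, against 61.6% over those of the other members. The motifs are shared by clustered genes with many reads, with few and with none, and a match describes these letters only.

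Other members differed in single-library parental comparisons, which have no test. With water, Mmp3, Adamts3 and Adamts12 were at least 2-fold higher in ObF1 and Adamts9, Adamts15 and Adam11 at least 2-fold lower, where 3.26% and 2.69% of all genes were. With 1,3BD, Mmp3 and Mmp16 were at least 2-fold higher and Mmp15, Adam8 and Adam11 lower, beside 3.12% and 4.26% of all genes. Adam11 was thus at least 2-fold lower in both, at 0.0375 and 1.26 CPM in ObF1 with 1,3BD and with water, against 0.323 and 2.67 CPM in LnF1, and did not pass (log2 -1.41, limma adjusted p = 0.368). Adamts15 had 16.3 and 5.17 CPM in ObF1 with 1,3BD and with water, against 21.9 and 17.4 CPM in LnF1 (log2 -1.08, limma adjusted p = 0.250), and was called only when no filter on low values was set. The log2 difference of Timp3 between the parental groups was 0.17 (limma adjusted p = 0.786). The sign of the parental difference was the same with both labels for 22 of 37 genes, and the share over all genes was not counted.

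**Figure D5:**
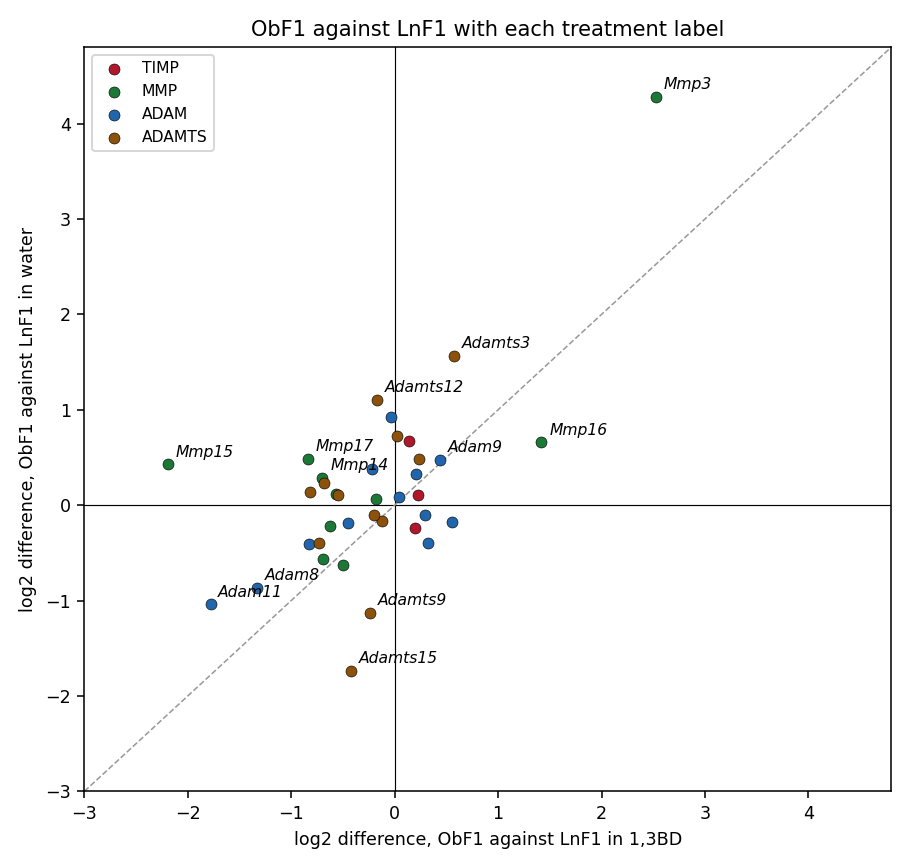
Log2 difference of ObF1 against LnF1 with 1,3BD (x axis) and with water (y axis) for the 37 tested genes, coloured by family, with a dashed line of equal differences. Mmp3 lies at 2.53 and 4.28 and most other genes lie within 1 of 0 on both axes.

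Among the untested members, a few differed in reads between the labels. The limma fit without a filter on low values called 6 of them, namely Adamts16 (log2 -3.31), Adamts17 (-2.71) and Mmp10 (-2.76) lower and Adam32 (2.32), Adam4 (2.12) and Mmp8 (2.04) higher with 1,3BD, with adjusted p from 1.05e-05 to 0.0127. Adamts16 had 0 reads in both 1,3BD libraries and 16 and 17 reads in ObF1 and LnF1 with water, at least 6.18-fold and 6.71-fold lower with 1,3BD against a floor of 3 reads a library. Adam32, a testis gene, had 33 and 27 reads in ObF1 and LnF1 with 1,3BD, against 2 and 6 reads with water, and Adam4, another, had 11 and 12, against 2 and 0. Adamts17 had 1 and 3 reads in ObF1 and LnF1 with 1,3BD, against 12 and 35 reads with water. Adamts19 had 17 reads in LnF1 1,3BD and 0 in the other 3 libraries. Mmp9, the gelatinase of leukocytes, had 6 and 8 reads in ObF1 and LnF1 with 1,3BD, against 18 and 8 reads with water, and Mmp12, the elastase of macrophages, had 1 to 7 reads a library. Of the 42 untested members 28 had 12 reads or fewer over the 4 libraries together, and the highest untested value in any library was 1.49 CPM.

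Genes linked to these enzymes as regulators, as partners, as shed ligands and their receptor, or as relatives were taken from 4 lists. Beside the list counts below, 19.2% of all genes were called higher with 1,3BD and 24.8% lower, with a median log2 difference of -0.060. In ObF1 against LnF1, 0.296% of all genes were called. No test of a list as such was made. Of 13 tested genes of MMP activation and control, 2 rose and 6 fell with 1,3BD, with a median log2 difference of -0.42. The urokinase receptor gene Plaur (-4.67) and the urokinase gene Plau (-3.52) fell. Plau stood at 7.42 and 5.85 CPM in ObF1 and LnF1 with 1,3BD, against 92.0 and 63.2 CPM with water. The broad protease inhibitor A2m (3.11) and the proprotein convertase gene Pcsk5 (1.80) rose. In ObF1 against LnF1, A2m was the 1 gene of the 4 lists that passed, at 13.4 and 1.09 CPM in ObF1 with 1,3BD and with water, against 1.26 and 0.127 CPM in LnF1 (log2 2.91, SE 0.45, limma adjusted p = 0.0265). The last of these levels is 3 reads, and the call ended with a pseudocount of 0.5 CPM (2.16) and without the 1,3BD term. It also ended without any 1 of LnF1 water (1.57), LnF1 1,3BD (4.26), ObF1 water (4.68) or ObF1 1,3BD (1.15). These last 4 fits also drop the 1,3BD term, so the 1,3BD difference of A2m enters their error and estimates. They cannot decide whether the parental call holds. The 1,3BD call of A2m ended without LnF1 water (1.86) or ObF1 1,3BD (1.44).

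The partners that carry ADAM17 and ADAM10 to the cell surface were not called higher with 1,3BD, except for 1 with plain library totals. Of 7 tested iRhom, FRMD8 and tetraspanin genes, 0 rose and 5 fell with 1,3BD (median log2 -1.29), with Tspan15 at -1.75, Tspan17 at -1.58 and Frmd8 at -1.31, while 1 was higher at an unadjusted p under 0.05 in limma and 0 were called higher by edgeR or DESeq2. The 5 lower calls became 2 without LnF1 water, 1 without ObF1 water, 2 without ObF1 1,3BD and 3 with library totals. The Tspan15 call ended with DESeq2 and without LnF1 1,3BD, ObF1 water (-1.13) or ObF1 1,3BD, and the Frmd8 call without LnF1 water, ObF1 water or ObF1 1,3BD (-0.69). Of 4 tested genes of the EGF receptor and its shed ligands, Egfr rose (1.38) and Hbegf fell (-2.10), calls that ended without LnF1 water for Egfr (1.17) and without LnF1 1,3BD, ObF1 water (-1.41) or ObF1 1,3BD for Hbegf. Egfr had 816 and 522 CPM in ObF1 and LnF1 with 1,3BD, against 290.4 and 217 CPM with water. Of 9 tested ADAMTS-like, astacin and pappalysin genes, 2 rose, Pappa2 (2.11) and Tll1 (0.68), and 5 fell, led by Adamtsl3 (-4.60), Adamtsl4 (-1.62) and Adamtsl1 (-1.42). The 5 lower calls became 2 without LnF1 water, 3 without ObF1 water and 2 without ObF1 1,3BD. The Tll1 call was made in 5 of 13 settings, the Pappa2 call ended without ObF1 water (1.62), and the Adamtsl4 call without LnF1 water (-1.22) or ObF1 1,3BD (-0.91).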

How the data were processed

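Stromal vascular RNA of inguinal fat was sequenced in 4 libraries, 1 per combination of parental group and 1,3BD or water, and each was a pool of 3 mice. Per the labels' protocols, libraries were made from total RNA with an mRNA kit. Per the submitters' processing notes, the build was mm10 and the tools included edgeR and DESeq2, while for aligner, counter and use of strand the entry is "not given in the sources used here". The deposited signal values of the authors are CPM over a scaled library total. Every value in the table was a whole multiple of 1 read (tolerance 1e-06), so reads were recovered, and the total reads of the libraries lay between 24586827 and 26000090. The columns whose name gives only the parental group were taken as the water libraries, because the other column of that group is marked BD.

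The main test was limma 3.58.1 (R 4.3.3) on log2(CPM + 0.0796), the pseudocount being worth 2 reads, with 1,3BD and parental group as terms, a mean-variance trend and robust moderation, over the 12838 genes that reached 1 CPM in 2 or more libraries. A gene was called at a Benjamini-Hochberg adjusted p under 0.05. Fitted log2 differences and the folds made from them are on that scale, which understates those of low genes, while ratios between 2 libraries named as CPM ratios or floors are of the CPM itself. Alternatives were edgeR 4.0.16 and DESeq2 1.42.0 on the recovered reads, library totals, a pseudocount of 0.5 CPM, no filter, a mean of at least 5 CPM, moderation without robust weights, no second term, and leaving out each library. Replicate numbers do not exist, so no p-value here rests on variation between replicate libraries. In the main test the error comes from how far a difference failed to repeat across the other factor, moderated over genes of like level. In fits without the second term it comes from the spread between libraries on the same side of the comparison, likewise moderated. Single-library differences of at least 2-fold were counted among 12658 genes with a mean of at least 1 CPM. Levels per kb used merged exons of the mm10 annotation (GENCODE vM21). Upstream sequences came from RefSeq, GRCm38.p6. The tests were tried on simulated data with known changes.

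Values in every library are given for all TIMP genes, members called between the parental groups, the 5 members per family and direction with the largest 1,3BD difference in the less changed parental group, the 3 highest per length in each family, and 13 genes chosen for their role; from the 4 lists, up to 3 called genes per direction, of which 1 is not reported here. Members and lists were chosen with earlier results of these data known. Intervals and floors cover counting error only.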

Additional observations from a re-analysis of the deposited data

Results flagged for a closer look

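For 6 tested members the sign of a single-library difference turned round between parental groups or between labels by more than 0.25 on the log2 scale on each side. No replicate exists for these, and the difference between the differences was not tested. In 1,3BD against water, Mmp3 stood at -0.68 in ObF1 and 1.08 in LnF1, so that ObF1 minus LnF1 was -1.76. Adamts4 stood at -0.31 in ObF1 and 0.34 in LnF1, a gap of -0.65.

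In ObF1 against LnF1, 3 of 4 tested membrane-type MMP genes were lower in ObF1 with 1,3BD and higher in ObF1 with water. The other, Mmp16, was higher in ObF1 with both labels, at 0.900 against 0.287 CPM with 1,3BD and 3.13 against 1.95 CPM with water. Mmp15 stood at -2.20 with 1,3BD and 0.43 with water, a gap of -2.62. Mmp17 stood at -0.84 with 1,3BD and 0.49 with water, a gap of -1.33. Mmp14, the most abundant of them, stood at -0.70 with 1,3BD and 0.29 with water, a gap of -0.99. Adam22 went the other way at 0.32 with 1,3BD and -0.39 with water, a gap of 0.71. The Mmp15 values rest on few reads, at 0.525 CPM in ObF1 with 1,3BD.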

How the results depend on the processing

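No paired analysis was possible because the labels give no replicate numbers and each combination has 1 library. Members called for 1,3BD against water were 7 higher and 22 lower. Without a filter 11 were higher, and without the parental term 4. With 1 library left out, which also drops that term, 2 to 4 were higher and 8 to 19 lower. For ObF1 against LnF1 the 1 higher member became 0 among genes with a mean of at least 5 CPM and without the 1,3BD term. Its call was also lost with any 1 library left out, which drops the 1,3BD term too. Differences between the labels then enter the error of every gene, so such fits cannot decide whether the call holds. Without a filter 1 was lower, Adamts15. Members at least 2-fold different between the parental groups were 6 with water, or 12 at 1.5-fold. With 1,3BD they were 5, or 13 at 1.5-fold, 1 at a mean of at least 5 CPM and 3 with a pseudocount of 0.5 CPM. The mean filter and the larger pseudocount bear on low genes by their construction. No called member changed sign under any alternative. Over all genes, ObF1 against LnF1 gave 25 higher and 13 lower. That became 196 and 156 without a filter, 69 and 48 with DESeq2, 16 and 13 with library totals, 11 and 5 with the larger pseudocount, 10 and 5 at a mean of at least 5 CPM, and 0 to 2 without the second term or any 1 library. For 1,3BD against water, 2466 were higher and 3189 lower, against 668 to 1926 and 1232 to 2731 with 1 library left out. Leaving out a library leaves an arm of 1, assumed to vary like the rest. Where calls were lost otherwise, the cause was not tested. Depth limits the 42 untested members.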
